A study of Mus musculus with 12 samples.

Results

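The cytoplasmic ribosomal protein genes were followed between the developing hand and foot plates of the mouse. Their members were the probe sets with exactly 1 annotated symbol that begins with Rpl or Rps and a digit, or is Rplp0, Rplp1, Rplp2 or Rpsa. Kinase symbols beginning Rps6k and pseudogene symbols were left out. In all 106 probe sets of 50 genes met this rule. The A array held 100 of them (48 of 12394 genes with such a probe set) and the B array 6 (5 of 9611 genes), and 3 genes, Rpl22, Rpl7l1 and Rps3, were on both. Of the 50 genes, 43 carried core names, 22 of the large subunit and 21 of the small. The other 7 were paralogs of like name (Rpl3l, Rpl7l1, Rpl22l1, Rpl39l, Rps4l and Rps27l) and Rps19bp1, a nucleolar partner of the Rps19 protein that meets the rule by its letters only.

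Total RNA came from autopods, the distal limb segment that forms digits, of wild-type embryos of stage E12.5. Samples 11, 13 and 25 were forelimb autopods and samples 12, 14 and 26 hindlimb autopods, and RNA of each was put on both Affymetrix MOE430 GeneChips, A and B. The limb of forelimb 11 on the A array rests on a letter of its title, because its tissue label leaves the limb out. Nothing in the labels says whether samples were separate embryos, litters or pools, so a p-value here reflects only how far these samples spread, which may be technical. Autopods are mixed tissue, and in bulk RNA more cells that express a gene and more of its RNA per cell cannot be told apart.

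A cytoplasmic ribosome joins a large subunit, which forms peptide bonds, and a small subunit, which reads the mRNA. Most proteins of either are normally present once per particle. Most ribosomal protein mRNAs are abundant and begin with a run of pyrimidines, the 5' terminal oligopyrimidine tract, through which growth signals acting on mTOR adjust their translation. In mice, mutations of several of these genes give selective defects: loss of 1 copy of Rpl38 shortens the tail and patterns the axial skeleton abnormally, and Rps19 and Rps20 mutants have dark footpads.

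The annotated starts were searched for this tract. RefSeq windows of 300 bases (GRCm38.p6, 250 before and 50 from the start) were matched by gene identifier for 44 of the 50 genes, 52 windows in all. Rpl7, Rpl8, Rps14, Rps20, Rps29 and Rps4l had none. A run of at least 5 C or T letters on the sense strand within 10 bases either side of the start was found in 25 of 44 core windows (56.8%), against 34.4% of all 32851 windows and 34.1% of the windows of genes tested on the A array. The other 19 core windows had none, and 3 of the 8 windows of paralogs and Rps19bp1 had one. On the antisense strand the same search found 25% of core windows and 36.7% of all windows. The word CCGGAAG, a match to the core of ETS family sites, was present on either strand in 19 core windows (43.2%), against 8.86% of all windows and 16.8% of those of tested genes. AAGATGGC, a match to the YY1 motif, was present in 3 core windows (6.82%), against 2.75% and 4.40%. The complement of CCGGAAG begins with 5 pyrimidines, so the first and second search can overlap. A match describes letters, not a bound site.

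The start regions below belong to the genes with the smallest p-values in the limb comparison and to Rpl38, with each annotated start of those genes. Each runs 5' to 3' on the gene's strand, with 30 bases before and 20 bases from the start. Capitals mark the longest pyrimidine run, of at least 5 letters, found within 10 bases of the start, and CCGGAAG where it lies in the stretch. Letters of a run beyond those 10 bases are not capitalized, as at Rpl13a and the first Rps27l start.
Rps10, chr17:27635225-27635274, minus strand: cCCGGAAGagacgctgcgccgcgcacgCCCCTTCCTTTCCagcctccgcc
Rpl13a, chr7:45128726-45128775, minus strand: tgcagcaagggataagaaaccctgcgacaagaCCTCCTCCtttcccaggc
Rps27l, chr9:66946056-66946105, plus strand: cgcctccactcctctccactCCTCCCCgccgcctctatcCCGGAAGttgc
Rps24, chr14:24490648-24490697, plus strand: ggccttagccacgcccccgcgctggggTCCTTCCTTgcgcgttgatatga
Rps27l, chr9:66946383-66946432, plus strand: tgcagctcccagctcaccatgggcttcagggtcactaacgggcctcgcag
Rps24, chr14:24490723-24490772, plus strand: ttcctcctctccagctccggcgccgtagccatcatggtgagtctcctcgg
Rpl38, chr11:114668550-114668599, plus strand: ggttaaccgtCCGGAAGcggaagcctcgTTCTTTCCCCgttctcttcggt
Rpl22, chr4:152325696-152325745, plus strand: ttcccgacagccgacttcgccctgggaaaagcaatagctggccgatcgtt
Rpl22, chr4:152324406-152324455, plus strand: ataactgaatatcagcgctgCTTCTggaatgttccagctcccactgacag
Rpl41, chr10:128549149-128549198, minus strand: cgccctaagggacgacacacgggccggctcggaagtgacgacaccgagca
Rps10, Rpl38 and the first Rps27l start carry both features within these 50 bases. The first Rps24 start and the Rpl13a start carry a run only, as does the second Rpl22 start, with a run of 5. The Rpl41 start, the first Rpl22 start and the second starts of Rps27l and Rps24 carry neither in the bases shown. The full Rpl41 window does hold CCGGAAG, outside this stretch. Likewise the full windows of Rpl13a and of the second Rpl22 start hold AAGATGGC.

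The limb labels were borne out by the limb markers: the summed scaled signal of the Tbx5 probe sets on the A array was 1620 to 1940 in forelimb and 37.3 to 188 in hindlimb, and that of Tbx4 and Pitx1 was 318 to 412 against 1110 to 1690. Limb mesenchyme markers (Prrx1, Msx1, Hoxd13, Hoxa13 and Hoxd12) summed to 11800 to 13400 in forelimb and 10500 to 13500 in hindlimb. Cartilage markers (Sox9, Col2a1, Acan and Matn4, 5 of 5 probe sets tested) summed to 5350 to 6220 in forelimb and 3210 to 4370 in hindlimb, without overlap. Ectoderm markers (Krt14, Krt15, Krt5, Epcam and Trp63, 7 of 9 tested) summed to 4400 to 5860 and 3390 to 3940. Krt5 (1120 to 1220 against 760 to 969), Krt15 (235 to 377 against 81.5 to 111) and the brighter Krt14 probe sets separated the limbs likewise. The dimmest Krt14 probe set went the other way, at 136 to 148 in forelimb and 150 to 154 in hindlimb. Epcam and Trp63 probe sets overlapped, so the sum does not describe ectoderm markers as a class. Erythroid markers summed to 61600 to 67500 in forelimb and 66500 to 70400 in hindlimb, endothelial markers to 1260 to 1320 and 1100 to 1280, macrophage markers to 1480 to 1590 and 1370 to 1710, muscle markers to 761 to 868 and 543 to 796, and nerve markers to 457 to 550 and 470 to 620. No list was at 0. RNA integrity was read from 3' over 5' signal ratios. On the log2 scale that ratio was -0.24 to -0.08 in forelimb and -0.30 to -0.26 in hindlimb for Gapdh on the A array, again without overlap, and 0.12 to 0.26 and 0.22 to 0.27 for Actb. On the B array, with the same sample numbers, both ratios overlapped, at -0.25 to -0.07 and -0.17 to -0.11 for Gapdh and 0.24 to 0.31 and 0.21 to 0.32 for Actb. The part of cell makeup or RNA integrity in the differences below was not tested.

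No ribosomal protein probe set differed between the limbs by the test across each array. Values are log2 hindlimb minus forelimb of log2(signal + 32) of the scaled signals, with the standard error (SE) from limma and n = 3 samples per limb. The pseudocount of 32 understates differences of dim probe sets. In the A design, 89 of the 100 member probe sets (46 of 48 genes) reached a scaled signal of 100 on 3 or more of the 6 arrays and were tested, and 0 passed an adjusted p of 0.05, where 5 of 15338 probe sets passed (0.0326%). The lowest adjusted p among members was 0.376 (limma, Benjamini-Hochberg over all 15338). At an unadjusted limma p under 0.05 there were 6 members higher in hindlimb (6.74%, against 1.85% of all tested) and 0 lower (against 3.69%). In either direction together there were 3 without forelimb 25 and 3 without hindlimb 12. On 9 members all 3 hindlimb samples lay above all 3 forelimb samples (10.1%, against 4.94% of all tested), and on 1 the reverse held (1.12%, against 6.10%). Several of these probe sets measure the same gene, so they are not independent counts.

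Most member differences were small and measured closely. They ranged from -0.28 (Rps27) to 0.67 (Rps10), and 62 of 89 were above 0 (69.7%, against 47.8% of all tested). The median was 0.06, against -0.0086 for all tested probe sets. Under quantile normalization the median was 0.033, with 51 of 89 above 0. The median also shrank without forelimb 13 (0.023), without hindlimb 14 (0.029) or without forelimb 25 (0.038). The median SE was 0.093 for members and 0.16 for all tested. These groups were not matched for signal. Among members the median SE was 0.12 for the 44 dimmer and 0.082 for the 45 brighter. The closer intervals of members below are therefore not shown to be a trait of these genes apart from their brightness. The 95% interval of the difference lay wholly within 0.5 of 0 on the log2 scale, a factor of 1.41, for 75 of the 89 members (84.3%, against 55.7% of all tested), and within 1 of 0 for all 89 tested members (96.8% of all tested). A member that misses the threshold is not thereby shown to be equal in the limbs.

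**Figure D1:**
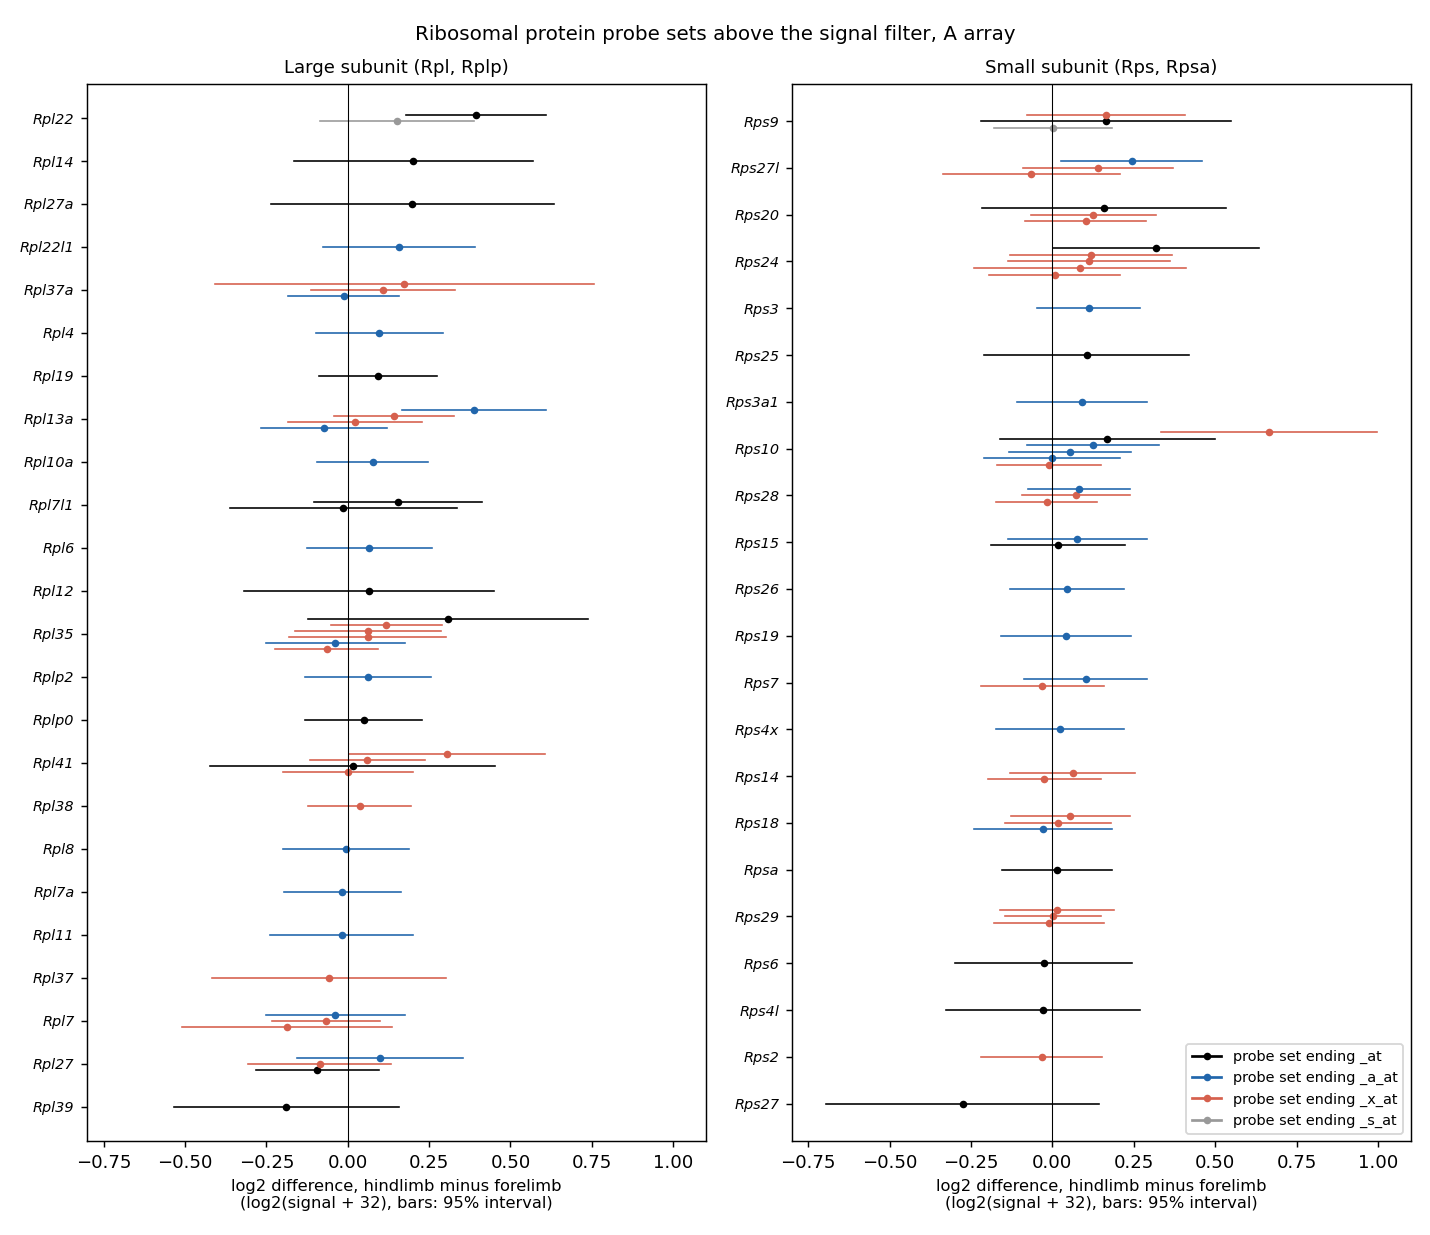
Log2 difference, hindlimb minus forelimb (horizontal axis), of every tested member probe set of the A array, by gene and grouped by the prefix of the symbol, with paralogs under their prefix. Points are limma differences, bars their 95% intervals (3 samples per limb) and colours the ending of the probe set name; most of the 89 intervals include 0, and the highest point is one Rps10 probe set at 0.67.

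Taken over all members, the limbs overlapped from sample to sample. With each probe set centred on its own mean over the 6 samples, the median member deviation was 0.038 in forelimb 11, -0.064 in forelimb 13 and -0.042 in forelimb 25. It was 0.025 in hindlimb 12, 0.084 in hindlimb 14 and -0.027 in hindlimb 26. Forelimb 11 thus lay above hindlimb 12 and 26, and hindlimb 14 above every other sample. The same medians over all tested probe sets lay between -0.017 and 0.024. Of the 89 members, 41 had their highest value in hindlimb 14 and 21 in forelimb 11, while 25 had their lowest in forelimb 13 and 19 in forelimb 25. All arrays had been scaled to one trimmed mean, so these levels are relative to the rest of each array.

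**Figure D2:**
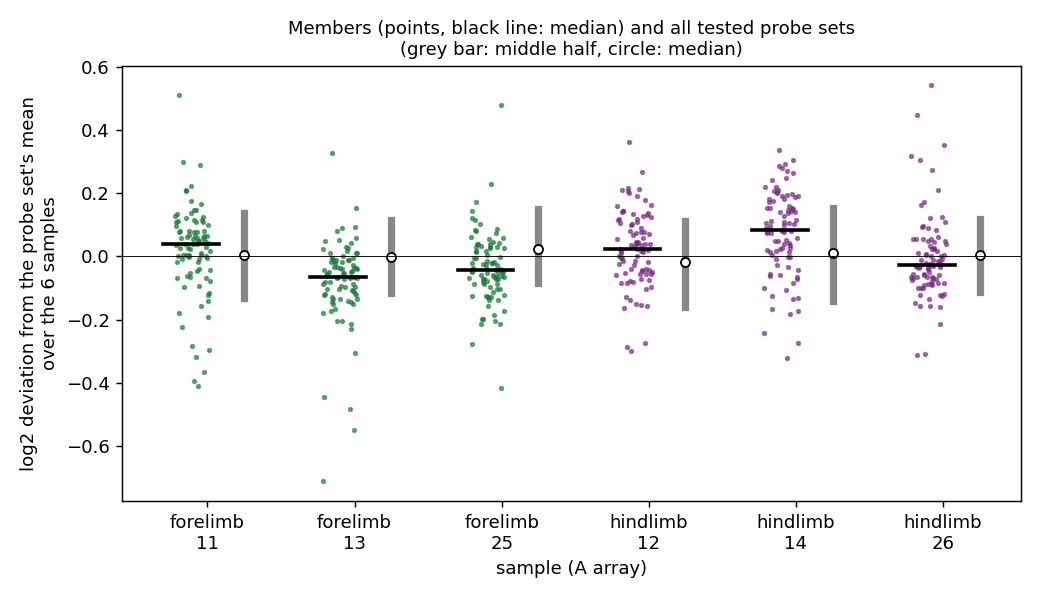
Deviation of each member probe set of the A array from its mean over the 6 samples (vertical axis, log2), by sample; points are the 89 members, black lines their medians, and grey bars with circles the interquartile range and median of all tested probe sets. Medians run from -0.064 in forelimb 13 to 0.084 in hindlimb 14, and forelimb 11 lies above hindlimb 12 and hindlimb 26.

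Both subunits gave like medians. The 40 tested core probe sets of the large subunit had a median difference of 0.061 with 26 above 0, and the 42 of the small subunit 0.055 with 32 above 0. By sample, the large-subunit median ran from -0.054 in forelimb 13 to 0.095 in hindlimb 14, and the small-subunit median from -0.065 to 0.076 in the same samples. Among the 82 core probe sets together the median was 0.058.

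In the large subunit, Rpl22 stood first. Its protein binds RNA, is dispensable for most mouse tissues and is known for its part in T cell development. Scaled signals of probe set 1416603_at were 5428, 4893 and 5533 in forelimb 11, 13 and 25, and 6626, 7661 and 6608 in hindlimb 12, 14 and 26. All hindlimb samples lay above all forelimb samples, with a difference of 0.39 ± 0.10 (SE, limma adjusted p = 0.456). Probe set 1448398_s_at of the same gene gave 1973, 1839 and 1786 in forelimb and 2176, 2084 and 1972 in hindlimb, overlapping narrowly, with a difference of 0.15. The B array probe set 1453118_s_at read 32430, 29540 and 29940 in forelimb and 38630, 34990 and 33020 in hindlimb, again without overlap, with 0.21 ± 0.12 (limma adjusted p = 0.904). All 3 Rpl22 probe sets thus had the same sign, on RNA of the same 6 samples.

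Rpl13a, a large-subunit protein also known as a translational silencer in interferon-treated myeloid cells, ranged from -0.07 to 0.39 over its 4 tested probe sets. On 1433928_a_at the signals were 3026, 3279 and 3617 in forelimb and 4347, 4378 and 4260 in hindlimb. The limbs did not overlap, and the difference was 0.39 ± 0.10 (limma adjusted p = 0.496). On 1455001_x_at they did not overlap either, at 7363, 6578 and 6850 against 7516, 7853 and 7555, with 0.14. The remaining Rpl13a probe sets, 1455485_x_at and 1417608_a_at, overlapped and gave 0.02 and -0.07. Rpl41, a very short basic peptide, read 646.1, 831.5 and 687.4 (forelimb) against 899.7, 958.6 and 829.6 (hindlimb) on 1454639_x_at, where forelimb 13 reached above hindlimb 26. Its difference there was 0.31 ± 0.14 (limma adjusted p = 0.888), while the other 3 tested Rpl41 probe sets gave 0.002 to 0.06.

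The other large-subunit genes named for their known roles had 95% intervals that included 0. Rpl38, the gene of the Tail-short mouse, whose protein is needed for translation of a subset of Hox mRNAs, gave 14600, 13800 and 14100 in the forelimb samples and 14200, 15350 and 14060 in the hindlimb samples. The ranges overlapped and the difference was 0.04 (95% interval -0.12 to 0.20). Rpl11, part of the 5S particle and an inhibitor of Mdm2, gave -0.02 (-0.24 to 0.20). Rplp0 and Rplp2, of the stalk that recruits elongation factors, gave 0.05 (-0.13 to 0.23) and 0.06 (-0.13 to 0.26). Rpl27a, mutated in the sooty foot ataxia mouse, was measured on 1437729_at with wide error at 0.20 (-0.24 to 0.64), or 0.03 without forelimb 13 and 0.07 without hindlimb 26, and its other probe set was below the signal filter. Rpl35, which lies at the exit of the peptide tunnel and was named for its range, ran over its 6 probe sets from -0.07 to 0.31, the highest on the dimmest, 1454833_at (167.7, 117.7 and 190.1 in forelimb, 219.8, 223.9 and 163.2 in hindlimb, overlapping). Without forelimb 13 that probe set gave 0.14. Its probe set 1436840_x_at did not overlap, at 9272, 9262 and 9323 against 10620, 10080 and 9579, with 0.12.

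Rpl7 was the only gene with several tested probe sets that were all below 0 on the A array. Its 3 differences were -0.04, -0.07 and -0.19. On 1415979_x_at the forelimb samples had 10910, 10810 and 10920 and the hindlimb samples 10740, 10660 and 9774. It was the member on which every forelimb sample lay above every hindlimb sample, by a narrow margin and with a difference of -0.07 ± 0.08 (SE, limma adjusted p = 0.981). Rpl39, a small protein inside the peptide tunnel, gave -0.19 (-0.53 to 0.16).

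In the small subunit, Rps10 had the widest range among the probe sets of 1 gene. Its protein sits at the beak of the subunit and is mutated in a form of human Diamond-Blackfan anaemia. On 1439374_x_at the signals were 5842, 4153 and 6527 in forelimb 11, 13 and 25 and 8773, 7784 and 9308 in hindlimb 12, 14 and 26. Every hindlimb sample lay above every forelimb sample, and the difference of 0.67 ± 0.15 (a factor of 1.59, limma adjusted p = 0.376) was the highest of any tested member. On 1416719_a_at the same samples gave 12580, 12010 and 11660 against 11460, 13870 and 11070, overlapping, with a difference of 0.00 (-0.21 to 0.21). The other 4 Rps10 probe sets gave -0.01 to 0.17. Of these only the dim 1436384_at separated the limbs, at 174.8, 184.9 and 158.8 against 205.4, 186.9 and 201.7.

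Rps24, which is alternatively spliced and also mutated in Diamond-Blackfan anaemia, had 5 tested probe sets, all above 0. The dim 1455195_at read 231.9, 225.6 and 214.7 in forelimb and 278.2, 262.2 and 324.5 in hindlimb, without overlap, with 0.32 ± 0.14 (limma adjusted p = 0.896). The bright 1436064_x_at read 11600, 12270 and 13320 against 13720, 11300 and 12410, overlapping, with 0.01. Rps28, a small protein near the mRNA exit channel, separated the limbs on 1451101_a_at at 0.08 but gave 0.07 and -0.02 with overlap on its other probe sets. Rps20, next to the mRNA entry region of the head, gave 0.10 to 0.16 on its 3 tested probe sets, and in each the limbs overlapped.

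Other small-subunit genes named for their roles overlapped between the limbs. Rps19, whose human gene is the most often mutated in Diamond-Blackfan anaemia, gave 8777, 8921 and 8394 in the forelimb samples and 9157, 9749 and 8026 in the hindlimb samples, with a difference of 0.04 (-0.16 to 0.24). Rps6, the substrate of S6 kinase, gave -0.03 (-0.30 to 0.25). Rps14 gave 0.06 and -0.03, and Rps7 0.10 and -0.03, on a pair of probe sets each. Rpsa, also known as a laminin receptor, gave 0.01 (-0.16 to 0.18) and Rps4x, the X-linked copy of the S4 gene, 0.02 (-0.17 to 0.22). Rps3, at the mRNA entry and also a DNA repair protein, gave 0.11 (-0.05 to 0.27). Rps27 had the lowest difference of any tested member, -0.28 (-0.70 to 0.14), on 1460699_at, a dim probe set with 341.2, 240.9 and 202.9 in forelimb and 182.9, 234.5 and 203.1 in hindlimb.

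Among the paralogs, Rps27l, a p53 target that stands in for Rps27 in the ribosome, had the smallest p. Its 1450925_a_at signals were 4010, 4136 and 4043 in forelimb and 5124, 5026 and 4343 in hindlimb. The limbs did not overlap, and the difference was 0.24 ± 0.10 (limma adjusted p = 0.812). On 1435429_x_at the limbs overlapped with 0.14, and on 1423254_x_at hindlimb 26, at 3266, was the lowest of the 6 samples and the difference was -0.06. Rpl22l1, which can replace Rpl22 in the ribosome, had 5712, 5243 and 4960 in forelimb and 5874, 6631 and 5314 in hindlimb, overlapping, with 0.16 (-0.07 to 0.39). Without hindlimb 14 its difference was 0.08. Rpl7l1 gave 0.15 and -0.01, and Rps4l -0.03. Rpl3l, the paralog of Rpl3 in heart and skeletal muscle, and Rpl39l, best known from the testis, were below the filter. Mean signals were 16.2 (forelimb) and 8.38 (hindlimb) for Rpl3l, and 15.2 and 26.1 for Rpl39l. Over the 7 tested paralog probe sets the median was 0.14 with 4 above 0.

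**Figure D3:**
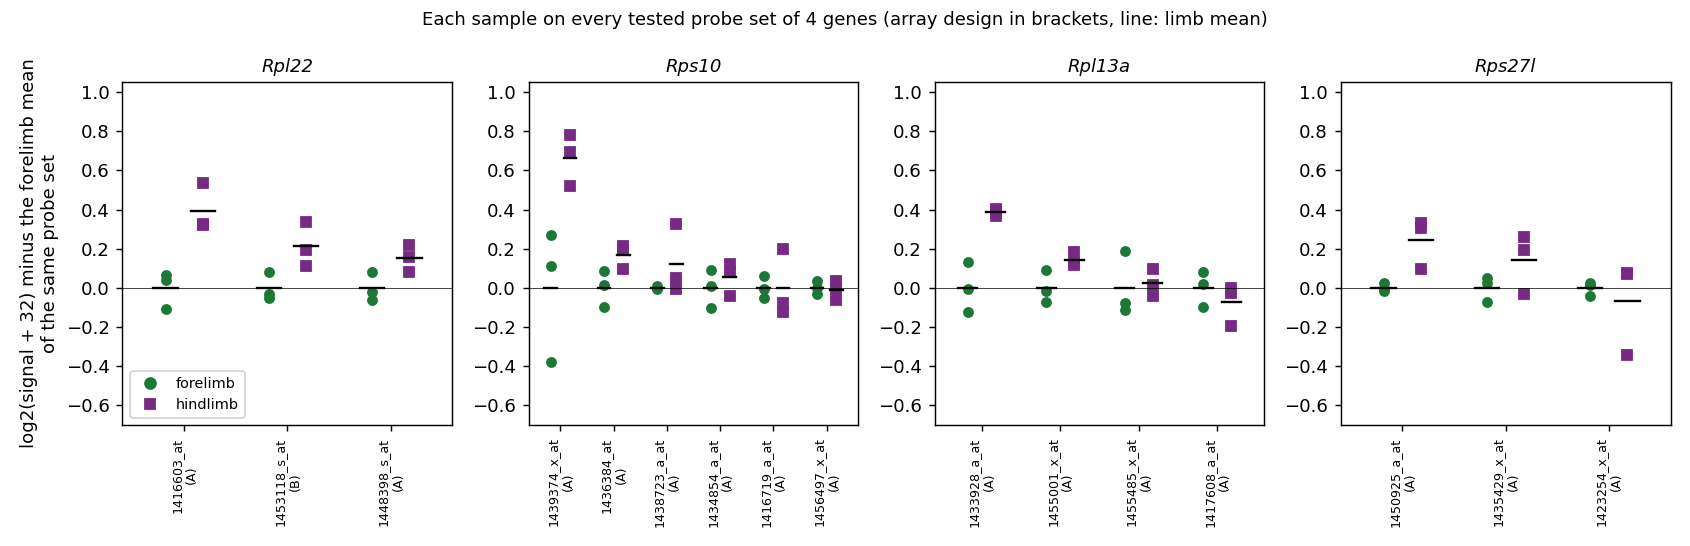
Every tested probe set of Rpl22, Rps10, Rpl13a and Rps27l (horizontal axis, array design in brackets), as log2(signal + 32) minus the forelimb mean of that probe set. Points are samples (3 per limb) and black lines limb means; the 3 Rpl22 hindlimb means lie above 0, at 0.15 to 0.39, whereas those of Rps10 run from -0.01 to 0.67.

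Probe sets of 1 gene often differed in sign, though some of these differences were smaller in size than their SE. Rps29, for one, ran from -0.010 to 0.013 with SEs of 0.067 to 0.079. The counts of signs therefore do not show that probe sets of a gene disagree. Of the 46 tested genes, 19 had several tested probe sets: in 6 every difference was above 0 (Rpl22, Rpl41, Rps9, Rps15, Rps20 and Rps24), in 1 every difference was below 0, and in 12 the signs were mixed. The largest ranges within a gene were 0.68 for Rps10, 0.46 for Rpl13a and 0.37 for Rpl35. By the maker's naming, _x_at marks probe sets with probes that can match other transcripts and _s_at those that match several genes alike. The medians by ending were 0.079 for the 22 probe sets in plain _at, 0.063 for the 27 in _a_at and 0.046 for the 38 in _x_at. The 44 dimmer members (mean signal 173.3 to 9257) had a median of 0.10, a range of -0.28 to 0.67 and a median SE of 0.12. The 45 brighter members (9690 to 19100) had a median of 0.024, a range of -0.09 to 0.12 and a median SE of 0.082. Whether the brightest spots had reached the limit of the scanner was not tested.

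The B array held few members. All 5 tested were of 4 genes, and 0 passed the adjusted threshold (0.0117% of 17145 tested), with a lowest limma adjusted p of 0.904. At an unadjusted p under 0.05 there were 0 in either direction, against 2.33% of all tested higher and 3.21% lower. Only Rpl22 had its hindlimb samples all above its forelimb samples (background 4.81%), and 0 had the reverse (6.14%). Besides Rpl22, Rps19bp1 gave 0.13 (-0.20 to 0.46), Rpl7l1 0.08 (-0.36 to 0.53) and the pair of Rps3 probe sets 0.02 (-0.24 to 0.29) and -0.25 (-0.67 to 0.17), all with overlap. The Rps16 probe set was below the filter. The median of the 5 was 0.084, against -0.014 for all tested, and 0.026 without forelimb 13 and 0.046 without hindlimb 14.

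Other genes of the translation apparatus were set beside the members by the brightest tested probe set of each gene. On this count 33 of 46 member genes were above 0 with a median of 0.039, against 4208 of 8946 genes and -0.011 over the whole A array. Other genes known for mRNAs with the oligopyrimidine tract, mostly translation factors but also Tpt1, Naca, Btf3, Nap1l1 and Hnrnpa1, had 14 of 17 above 0, a median of 0.065 and a range of -0.12 to 0.17, and 0 passed the test. By sample their median was lowest in forelimb 25 (-0.056) and forelimb 13 (-0.053) and highest in hindlimb 14 (0.12), where the member genes stood at -0.042, -0.054 and 0.14. Fau, which encodes a small-subunit protein fused to a ubiquitin-like domain, gave 0.03.

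Among 33 tested genes of ribosome assembly and the nucleolus, 19 were above 0 (median 0.015) and 0 passed. Nop56, a core protein of the particles that methylate ribosomal RNA, had 1307, 1212 and 1136 in forelimb and 1776, 1613 and 1579 in hindlimb, without overlap, with 0.43 ± 0.12 (SE, limma adjusted p = 0.549). Its other probe set gave 0.08. Ncl, the abundant nucleolar protein nucleolin, gave 0.16 without overlap, and 0.13, 0.13 and -0.12 on its other probe sets. Of 12 genes of RNA polymerase I and its factors, which make the ribosomal RNA, 10 were above 0 (median 0.10) and 0 passed. Of 74 mitochondrial ribosomal protein genes, 49 were above 0 (median 0.043) and 0 passed. Mrpl20, of the large mitochondrial subunit, had 1558, 1418 and 1506 in forelimb and 960.8, 677.7 and 985.6 in hindlimb. No hindlimb sample reached a forelimb sample, and at -0.77 ± 0.15 (limma adjusted p = 0.219) it was farther from 0 than any cytoplasmic member.

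**Figure D4:**
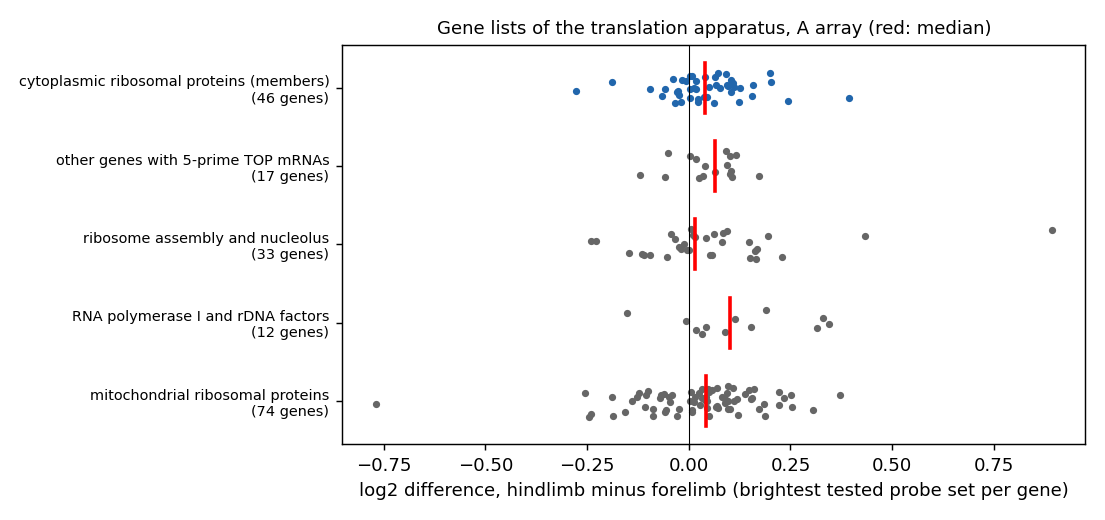
Log2 difference, hindlimb minus forelimb (horizontal axis), of the brightest tested probe set of each gene on the A array, for the members and 4 other gene lists; points are genes and red lines medians. The medians run from 0.015 (ribosome assembly) to 0.10 (RNA polymerase I), with Mrpl20 at -0.77 as the lowest point and the assembly factor Rrp9 at 0.89 as the highest.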

How the data were processed

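The authors deposited 1 linear intensity per probe set and array, computed with MAS5.0 per the labels, which lack that note for forelimb 11 on the A array. The sources used here give no detection calls and no scanner settings. Each array was scaled to a 2% trimmed mean of 500 (A arrays by a factor of 1.43, B arrays by 7.14), which stretches dim B signals. Levels were not compared across designs. Signals of different probe sets were used to order them by brightness and to sum marker lists, not to compare RNA amounts between genes. Probe sets with at least 100 on at least 3 of 6 arrays were kept as log2(signal + 32), and 64 control probe sets per design were left out. Hindlimb and forelimb were compared within each design over all kept probe sets with limma 3.58.1 (R 4.3.3; two-sided moderated test from lmFit and eBayes, variance trend on, Benjamini-Hochberg adjustment, threshold 0.05). The number of arrays limits the precision.

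Symbols came from the platform annotation, and all 106 members were found in a RefSeq gene table with their symbol unchanged. Members, lists and named genes were chosen with earlier results of these data known. Named were, per design, the 6 members of smallest p, genes fixed for their roles, the 3 genes whose probe sets ranged most, genes with no probe set past the filter, and up to 4 genes of smallest p per other list; Rpl5, Rpl10, Rpl23, Rpl24, Rpl29, Rplp1, Rps27a and 4 paralogs, which had no probe set under the rule, were not analysed here. The genes given for probe sets that separate the limbs, Rps28 and Rpl7 among them, and Rps27, Rpl39, Rps15 and Rps9 were named after their values were seen. Lists are described by counts and medians, with no test over a list. Alternatives tried were a pseudocount of 1 or 100, no filter or one at 200, array weights, no variance trend, deposited values without scaling, quantile normalization, consecutive sample numbers as a block, both designs adjusted together, the brightest probe set per gene, no _x_at and _s_at probe sets, core names only, updated symbols and each sample left out. Python 3.11.15 with matplotlib 3.10.9 drew the figures.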

Additional observations from a re-analysis of the deposited data

How the results depend on the processing

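The count of members past the threshold was 0 under every alternative run on either array. The lowest limma adjusted p of a member ran from 0.0941 to 0.609 on the A array and from 0.808 to 0.975 on the B array; the 0.0941, of Rps10 1439374_x_at, came with the block of consecutive sample numbers, a pairing that the labels do not give. The median member difference ran from 0.023 to 0.076 (A) and 0.024 to 0.118 (B), and every value was above 0. With 3 samples per limb, differences as small as the members' medians cannot be resolved for single probe sets. Of all 89 tested members of the A array, 62 were above 0 in the main fit and 51 under quantile normalization. Sign was followed only for the members of smallest limma p, the genes fixed for their roles and those whose probe sets ranged most. Some of their probe sets near 0 turned sign. Under quantile normalization these were Rps4x (-0.001), Rpl38 (-0.008), Rpsa (-0.016), Rpl13a 1455485_x_at (-0.010) and, on the B array, Rps3 1455600_at (-0.033). With array weights they were Rps4x (-0.002), Rpl11 (0.014), Rpl7l1 1426386_at (0.071) and Rps14 1437706_x_at (0.004). The rest turned with a sample left out. The leave-one-out values ran from -0.081 to 0.083 for Rpl11, -0.033 to 0.117 for Rpl13a 1455485_x_at, -0.003 to 0.060 for Rpl38, -0.031 to 0.111 for Rplp2, -0.020 to 0.120 for Rps19, -0.061 to 0.029 for Rps6, -0.075 to 0.018 for Rps7 1435593_x_at, -0.065 to 0.038 for Rps14 1437706_x_at, -0.066 to 0.078 for Rps4x, -0.132 to 0.041 for Rps4l and -0.023 to 0.072 for Rpsa. For Rpl35 they ran from -0.110 to 0.017 (1416243_a_at), -0.028 to 0.121 (1454856_x_at) and -0.005 to 0.160 (1455950_x_at), and for Rps10 from -0.100 to 0.062 (1416719_a_at) and -0.033 to 0.015 (1456497_x_at). They ran from -0.136 to 0.075 for Rps27l 1423254_x_at, -0.097 to 0.144 for Rpl7l1 1426386_at and, on the B array, -0.090 to 0.237 for Rpl7l1 and -0.046 to 0.082 for Rps3 1455600_at. The cause of these turns was not tested.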

Other observations

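Many ribosomal protein probe sets carry several annotated symbols and so fall outside the rule. On the A array there were 102 of them, of which 96 were tested. Their differences ran from -0.21 to 0.35 with a median of 0.047, and 69 were above 0. None passed the adjusted threshold in limma (0 of 96, with 2 at an unadjusted p under 0.05, where 1.85% of all tested probe sets were higher and 3.69% lower). On 6 every hindlimb sample lay above every forelimb sample and on 0 the reverse held, where 4.94% and 6.10% of all tested did so. Their median deviation by sample was 0.031, -0.060 and -0.035 in forelimb 11, 13 and 25 and 0.025, 0.112 and -0.044 in hindlimb 12, 14 and 26, so hindlimb 14 was highest and forelimb 13 lowest. On the B array 10 such probe sets were tested, with 7 above 0, a median of 0.035 and 0 past the threshold (0 at an unadjusted p under 0.05).

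Further genes of the other translation lists on the A array did not pass the threshold either. Values in brackets are those of a gene's other tested probe sets. Among the other oligopyrimidine tract genes, Eif3k gave 0.17, Eif3l 0.10 (0.14 and -0.11), Naca 0.09 (0.16) and Eif4b 0.11 (-0.16 and 0.01). Of the RNA polymerase I factors, Taf1d gave 0.34 (-0.02, 0.32 and -0.13), Taf1c 0.33, Polr1e 0.32 (0.26) and Znrd1 -0.15. Mrpl37 gave 0.31, Mrpl15 0.25 (0.08 to 0.20) and Mrpl34 0.25 (-0.19), while the assembly factor Bop1 gave 0.23. Rrp9 gave 0.89, with a signal of 49.98 in forelimb 11 and 158.0 to 444.7 in the other samples. On the B array the 4 genes or fewer of smallest p per list had limma adjusted p-values from 0.894 to 0.988. Without overlap between the limbs were Eif6, which keeps free large subunits from joining (-0.33), Mrpl44 (0.54), Dkc1 (0.24; 0.12 and 0.47) and Polr1a (0.96). Polr1a was dim, at 87.13, 7.856 and 69.99 in forelimb and 110.0, 131.4 and 121.4 in hindlimb, with an SE of 0.546. It met the signal filter through its hindlimb arrays only. With every forelimb signal below the filter, a tested probe set must separate the limbs, so its lack of overlap is not informative. With overlap, Heatr1 gave -0.30, Tsr1 0.25, Mrpl47 -0.51 (1.52), Mrps27 0.29, Mrpl38 0.38, Polr1d 0.19 (0.18), Taf1d 0.10 (0.16), Rrn3 -0.02, Eef2 -0.57 and Eef1d -0.26. The B array lists had 2 tract genes with 0 above 0, 10 assembly genes with 6, 4 polymerase I genes with 3 and 25 mitochondrial ribosomal protein genes with 15, and 0 passed in each.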
